A study of Bos taurus with 40 samples.

Results

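Among 12056 genes measured in bovine liver, 80 genes (0.664%) carried a diet difference of moderate size in the same direction both at the end of feed restriction and after re-alimentation. Their transcripts were higher (43 genes) or lower (37 genes) in previously restricted (RES) than in continuously ad libitum fed (ADLIB) bulls in both periods. The members were chosen from the deposited normalised values, so the sizes and directions of the diet differences given here describe the choice and are not findings about it. For each gene the mean log2(normalised value + 1) of the ADLIB animals was subtracted from that of the RES animals, once for Period 1 and once for Period 2. A gene was a member when both differences had the same sign and a size of at least 0.35, the Period 1 difference was below 1 in size, and the mean abundance over all 40 animals was below 1000 CPM, that is, read counts scaled to a common library total. The rule also left out 7 identifiers. A difference of 0.35 on this scale understates the fold change of genes with low values, because 1 is added to every value before the logarithm.

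The liver takes up absorbed nutrients, makes and stores glucose, and secretes most plasma proteins, and its transcript levels respond to feed supply. Compensatory growth is the faster gain of an animal that returns to ample feed after a period of undernutrition. In Period 2 both groups had feed ad libitum, but how much each animal ate was not analysed here.

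All animals were male Holstein Friesian cattle offered the same mixture of concentrate and grass silage, and their age is not stated in the sample labels. RES bulls received a restricted allowance for the 125 days of Period 1, set to hold down their daily gain, followed by 55 days of ad libitum feeding in Period 2. ADLIB bulls had feed ad libitum throughout. There were 10 libraries in each of the 4 groups (RES and ADLIB at the end of each period), treated as 40 different animals because the study's methods describe slaughter at each time point, whereas the labels speak of biopsies. Liver is a mixture of cell types, and in bulk RNA fewer cells of a type and less RNA per cell cannot be told apart. The libraries held 8656866 to 15520237 reads on genes. The share of reads that fell on genes was 75.8% ± 1.79 (SD, n = 10) in RES and 78.1% ± 1.07 in ADLIB animals in Period 1, and 77.7% ± 1.55 and 76.6% ± 1.33 in Period 2. The deposited files give Ensembl identifiers without gene names, and 0 of the 24616 identifiers matched the reference table at hand. Members are therefore described by their values, with 4 identifiers given in full, and neither the functions of the genes nor the liver's cell type markers could be examined.

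Of the 1671 genes with a Period 1 difference between 0.35 and 1 in size, 800 were higher and 871 lower in RES. In 1485 of them (88.9%) the Period 2 difference was below 0.35 in size. The 80 members were 4.79% of these 1671 genes, and 106 genes (6.34%) had a Period 2 difference of at least 0.35 in the opposite direction. Of the 106, 63 went from a higher level in RES than in ADLIB animals to a lower one, and 43 went the other way. Under the rule as given, the genes of opposite sign outnumbered the members. The order turned with total-count scaling (118 genes of the same sign against 111), with differences taken within the unexplained numbers, 1 to 4, that the library names carry (157 against 124) and without replicate 6 of RES in Period 2 (114 against 107).

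**Figure D1:**
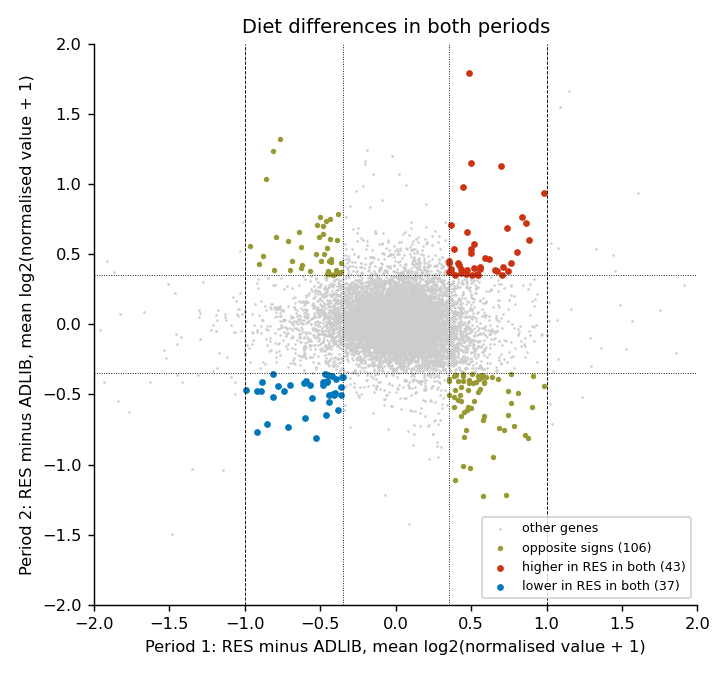
Each point is a gene, placed by its RES minus ADLIB difference in mean log2(normalised value + 1) in Period 1 (horizontal) and Period 2 (vertical), with dotted lines at 0.35 and dashed lines at a Period 1 difference of 1. The 43 members higher in RES are in red, the 37 lower in RES in blue and the 106 genes with opposite signs in olive, and 14 genes lie beyond the axes.

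The rule calls for a comparison of this number with permuted Period 2 labels. Diet was reassigned among the 20 Period 2 animals in all 184756 possible ways, with the Period 1 difference held as measured. The reassignment ignored the numbers in the library names, over which the diets were unevenly spread. The same rule then gave a median of 53 genes, with 5% to 95% of the relabellings between 27 and 110 and extremes of 6 and 256. At least 80 genes were reached in a share of 0.178 of the relabellings (exact permutation test, one-sided), so the number of members was not larger than the spread that the Period 2 animals give under such unrestricted labels. The 106 genes of opposite sign were matched or exceeded in a share of 0.0599 (exact permutation test, one-sided). For both kinds together, 186 genes against a median of 112, the share was 0.0532. None of these 3 shares was below 0.05.

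**Figure D2:**
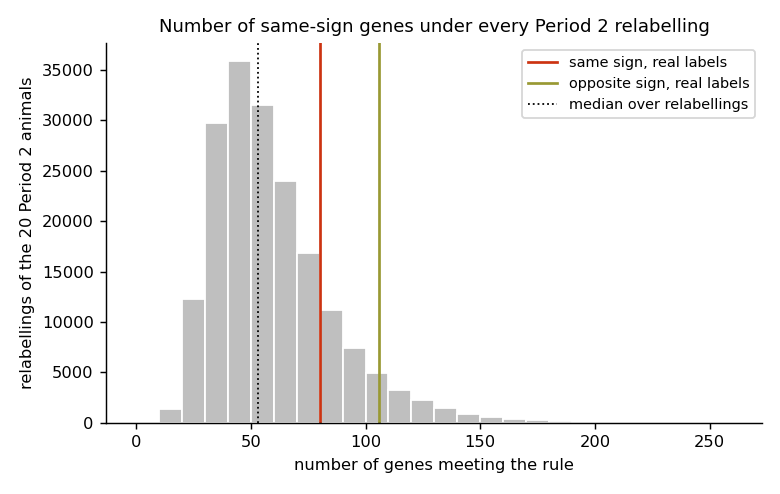
Number of genes with the same sign in both periods (horizontal) under every reassignment of diet among the 20 Period 2 animals, with the count of relabellings on the vertical axis in bins of 10 genes. The real number of 80 lies above the dotted median of 53 and below the upper part of the distribution, and the olive line marks the 106 genes of opposite sign under the real labels.

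The size of the members' differences was modest and similar in both periods. The size of the difference had a median of 0.502 in Period 1 and 0.440 in Period 2 on the log2 scale. In the members higher in RES the median difference was 0.50 in Period 1 and 0.44 in Period 2, and in the members lower in RES it was -0.48 and -0.47. The Period 2 difference was the smaller one in 49 members (26 higher and 23 lower in RES) and the larger one in 31. Both differences were at least 0.5 in size in 17 members, 10 higher and 7 lower. The largest Period 2 difference was 1.80, in a member at 53.6 CPM whose Period 1 difference was 0.48. That value was also the largest Period 2 difference in size over all 12056 genes. The SD between animals of a group was 1.46 for this member, the largest among the members. Its fold changes fitted by edgeR were 0.32 (SE 0.55, FDR 0.749) in Period 1 and 1.37 (SE 0.61, FDR 0.359) in Period 2, on the log2 scale.

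Many members lay close to the limits of the rule. In 32 members at least 1 of the differences was within 0.05 of the minimum. Within 0.02 of it there were 22 members above and 19 genes below. The members just inside had their smaller difference at -0.350, -0.351 and -0.353, and the genes just outside at 0.349, -0.349 and -0.348. At the upper limit of the Period 1 difference, members with -0.99 and 0.98 were kept and genes with -1.001 and 1.03 were not. The most abundant member had 810 CPM, and 1 gene that met all other conditions was left out at 1238 CPM. Another 27 genes had a Period 1 difference of 1 or more and a Period 2 difference of at least 0.35 with the same sign.

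Members were less abundant than most genes. Their mean abundance had a median of 6.51 CPM and ranged from 1.33 to 810 CPM, against a median of 13.3 CPM for all genes and 16.2 CPM for the 106 genes of opposite sign. Below 2 CPM lay 12 members (15.0%) and 6.90% of all genes. Between 2 and 10 CPM there were 36 members (45.0%) and 34.3% of all genes, between 10 and 100 CPM 27 members (33.8%) and 50.1%, and from 100 CPM upwards 5 members (6.25%) and 7.78%. These shares describe the choice. The standard deviation (SD) between animals of a group, on the log2 scale, had a median of 0.518 in members, 0.556 in the genes of opposite sign and 0.265 in all genes. Divided by this SD, the size of the difference had a median of 1.02 in Period 1 and 0.913 in Period 2 in the members.

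ENSBTAG00000040580 had the largest smaller-of-the-pair difference among the members higher in RES. Its normalised value ran from 1.41 through a median of 2.60 to 4.17 in RES and from 0 through 0.548 to 2.86 in ADLIB animals in Period 1. In Period 2 it ran from 1.06 through 2.15 to 8.32 in RES and from 0 through 0.700 to 3.12 in ADLIB animals. All 10 RES animals were above the ADLIB median in each period, while the groups overlapped at their edges. The differences were 0.98 and 0.94. These values rest on few reads, 14 to 95 per RES animal and 0 to 38 per ADLIB animal, and the gene failed the minimum of 4 reads in every animal that the count test required.

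ENSBTAG00000047121 was higher in RES on average but varied widely among animals. In Period 1 its normalised value ran from 1.37 through a median of 2.78 to 32.0 in RES and from 0.849 through 1.69 to 9.83 in ADLIB animals. In Period 2 the range was 1.16 through 4.98 to 35.9 in RES and 0.289 through 3.65 to 29.3 in ADLIB animals. In every group the highest animal was far above the median, and the groups overlapped over most of their range. The differences were 0.84 and 0.76, each smaller than the gene's SD between animals of a group, 1.10 on the log2 scale. With the share of reads on genes as a covariate the Period 1 difference was 0.20, below the minimum of the rule, and without replicate 5 of RES in Period 1 it was 0.56.

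ENSBTAG00000021118 was the member lower in RES with the largest smaller-of-the-pair difference. Its normalised value ran from 4.41 through a median of 11.5 to 22.9 in RES and from 11.4 through 22.7 to 35.9 in ADLIB animals in Period 1. In Period 2 it ran from 4.69 through 8.34 to 26.5 in RES and from 5.72 through 23.3 to 37.0 in ADLIB animals. In each period 9 of 10 RES animals were below the ADLIB median, and the groups overlapped, more widely in Period 2. The differences were -0.92 and -0.77, and the fold changes fitted by edgeR were -0.89 (SE 0.26) and -0.86 (SE 0.38) on the log2 scale.

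ENSBTAG00000006035 was also lower in RES. Its normalised value ran from 0.299 through a median of 1.00 to 2.17 in RES and from 0.985 through 1.56 to 6.79 in ADLIB animals in Period 1. In Period 2 it ran from 0.550 through 1.27 to 2.08 in RES and from 1.69 through 2.57 to 5.00 in ADLIB animals. The Period 2 groups barely overlapped, with all 10 RES animals below the ADLIB median and 97% of the RES and ADLIB animal pairs in the member's direction. The differences were -0.72 and -0.73, and the fold changes fitted by edgeR were -1.41 (SE 0.40) and -1.15 (SE 0.23) on the log2 scale. The added 1 shrinks the differences of such a weakly expressed gene. In Period 1 the ADLIB mean of 2.73 also lay far above the ADLIB median. With group medians in place of means the differences were -0.35 in Period 1 and -0.66 in Period 2. Its read counts were 4 to 66 per animal.

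**Figure D3:**
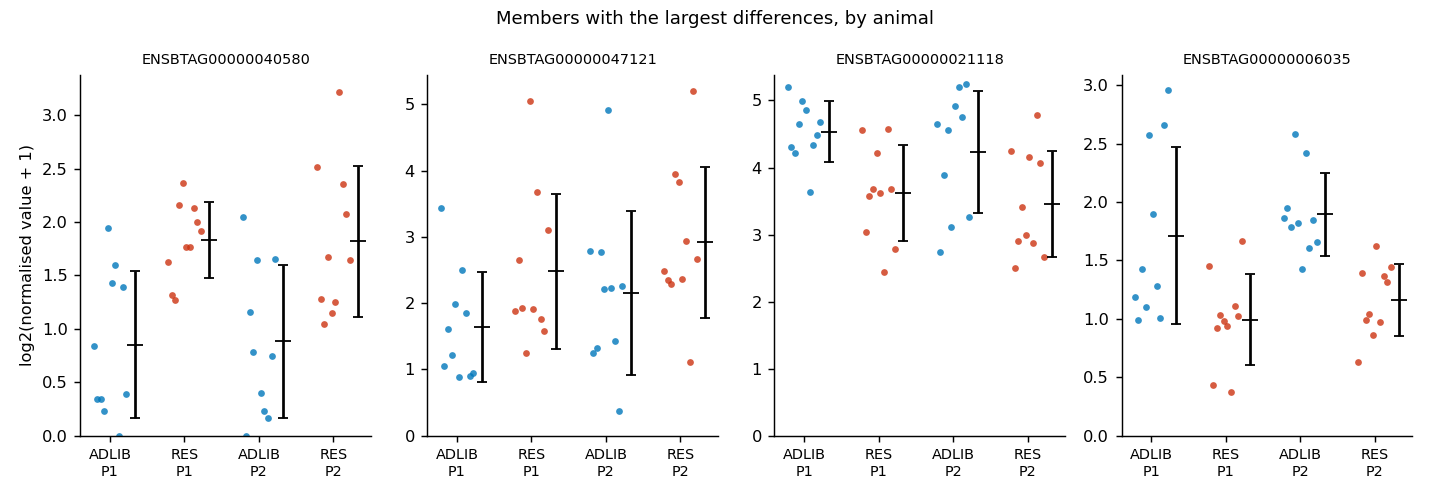
log2(normalised value + 1) of 4 members, with 1 point per animal, 10 animals per group, RES in red and ADLIB in blue, and a bar at the right of each group for the mean ± SD. The RES means lie above the ADLIB means in both periods for the 2 genes at the left and below them for the 2 at the right, and points of the groups overlap in every panel.

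The 5 members at 100 CPM or more comprised 2 higher and 3 lower in RES. The most abundant, at 810 CPM, had a median normalised value of 722 in RES and 1004 in ADLIB animals in Period 1, and 637 and 936 in Period 2. Its RES animals spanned 231 to 901 in Period 1 and 326 to 1098 in Period 2, and its ADLIB animals 675 to 1293 and 622 to 1522. A second member, at 344 CPM, had nearly equal medians in Period 1, 455 in RES and 448 in ADLIB animals, and 336 and 160 in Period 2. Its Period 1 difference in mean log2 values was 0.69, and the fold change fitted by edgeR was 0.20 (SE 0.58) on the log2 scale. The Period 1 ranges overlapped widely, 64.1 to 891 in RES and 18.4 to 927 in ADLIB animals, but reached lower in ADLIB animals. For the member at 140 CPM, higher in RES, the medians were 82.1 and 52.6 in Period 1 and 129 and 120 in Period 2, and the highest RES animals (810 and 451) were far above the highest ADLIB animals (131 and 171). The members at 150 and 102 CPM were lower in RES, with medians of 119 against 181 and 59.4 against 95.3 in Period 1, and 113 against 148 and 101 against 129 in Period 2. In these the RES medians were below the ADLIB medians in both periods with overlapping ranges.

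In 0 of the 80 members were all RES animals on one side of all ADLIB animals, in either period. Over all genes, 76 (0.63%) had groups apart in this sense in Period 1 and 0 (0%) in Period 2. The share of RES and ADLIB animal pairs that differed in the member's direction had a median of 78% in Period 1 (57% to 99%) and 74% in Period 2 (57% to 97%). At least 9 of the 10 RES animals lay past the ADLIB median in 41 members in Period 1, in 27 in Period 2 and in 13 in both. All 10 did so in 21 members in Period 1 and 4 in Period 2. The share of pairs reached 80% in both periods in 6 members, 4 higher and 2 lower in RES, with abundances of 1.94 to 37.0 CPM. The most abundant of these 6, higher in RES and at 37.0 CPM, had 99% of pairs in Period 1 and 87% in Period 2, for differences of 0.66 and 0.39. The rule chose the members by the values of these same animals. The shares of pairs and the counts past the ADLIB median were not computed over all genes, so they only describe the choice.

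**Figure D4:**
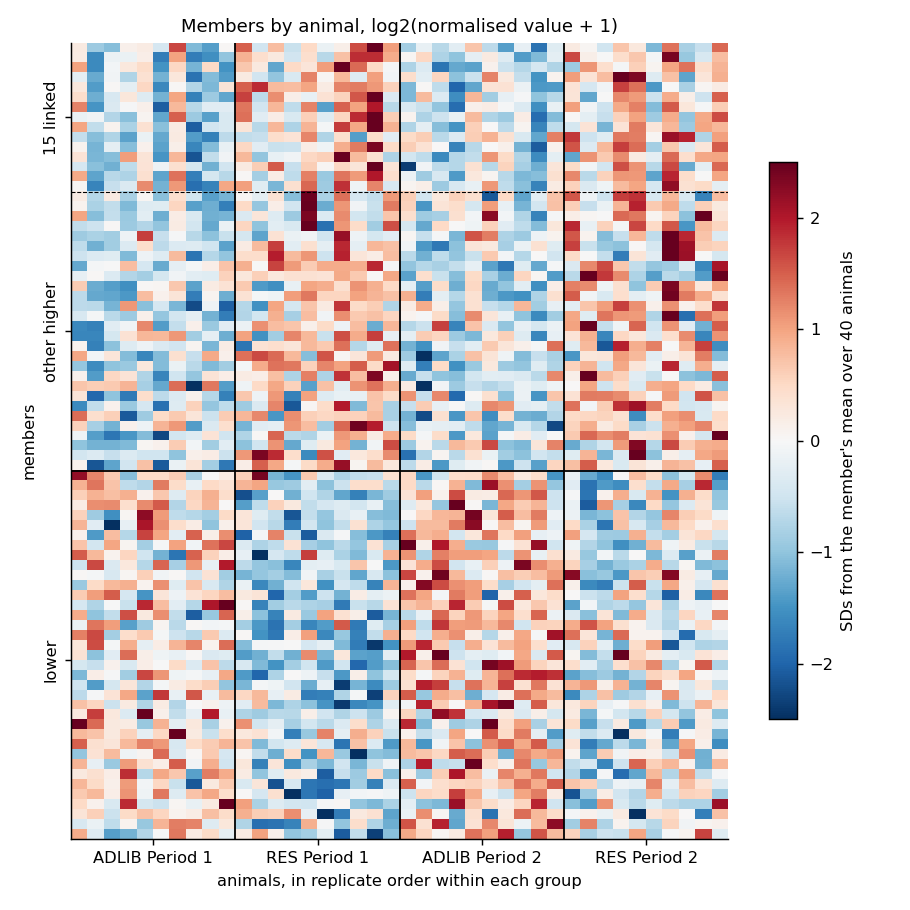
Each line is a member and each column an animal, coloured by the distance of log2(normalised value + 1) from the member's mean over 40 animals in SDs. The 43 higher members are at the top, the first 15 of them linked by correlation, and the 37 lower members at the bottom. Red and blue alternate between RES and ADLIB columns, with individual animals against the pattern in every group.

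The diet effect was also fitted on the read counts with edgeR's quasi-likelihood test, in each period separately, with a minimum of 4 reads per animal of the period. A differentially expressed gene (DEG) needed a fold change of 1.25 or more together with a false discovery rate (FDR) under 0.05. Because the rule used the same contrast, the members' calls are a description. In Period 1, 69 members entered the test and 11 did not pass the minimum, and 22 of the 69 (31.9%) were DEGs, against 10.3% of all genes tested. The 22 comprised 11 higher and 11 lower in RES, where 5.09% and 5.23% of all genes were called higher and lower. With total-count scaling in place of the trimmed mean of M-values (TMM), 25 members (36.2%) were DEGs, 15 higher and 10 lower, against 13.0% of all genes. The share of reads on genes differed between the diets in Period 1. With this share in the fit, 8 of the 69 members (11.6%) and 3.27% of all genes were DEGs. Without it, at an FDR under 0.0005, 2 members (2.90%) and 0.780% of all genes were DEGs. With total-count scaling the median log2 fold change of all genes was 0.11 instead of 0.02, and the split of all DEGs turned from 613 higher and 630 lower to 1184 and 379. In Period 2, 68 members entered and 12 did not, and 0 were DEGs, as were 0 (0%) of the 12202 genes tested. The study itself did report DEGs in Period 2, from edgeR with moderated tagwise dispersions, a fit that was not repeated here. Of the DEGs it found in both periods, all but PPP1R1B reversed their direction. At an unadjusted p under 0.05 (edgeR) there were 47 members (69.1%) and 1564 genes (12.8%). DESeq2 called 52 genes (0.426%), among them 4 of the 68 members (5.88%). The FDR of the members in Period 2 lay between 0.191 and 0.759. Of the 65 members tested in both periods, 35 had an unadjusted p under 0.05 (edgeR) in both. In 18, a DEG call in Period 1 came with an unadjusted p under 0.05 in Period 2. The rule used both contrasts and the shares over all genes were not computed, so these counts only describe the choice.

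The rule did not use the change from Period 1 to Period 2 averaged over both diets. This contrast is independent of the rule only as far as the 4 groups vary alike, and the median SDs of the members higher in RES were 0.505 and 0.588 in the RES groups and 0.440 and 0.446 in the ADLIB groups of Periods 1 and 2. In the members lower in RES they were 0.481 and 0.523 against 0.533 and 0.556. Of 65 members with at least 4 reads in all 40 animals, 11 (16.9%) were DEGs between the periods (edgeR, FDR under 0.05), against 12.5% of the 11868 genes tested. Of the 11, 7 were higher and 4 lower in Period 2, where 6.25% and 6.24% of all genes were called higher and lower. At an unadjusted p under 0.05 there were 18 members (27.7%) and 37.5% of all genes. The members' share by FDR and fold change was near the background, and its order turned with the settings: it was 15.4% against 17.2% with total-count scaling, 9.23% against 10.6% within library-name numbers, 12.3% against 12.7% with a replicate block and 20.0% against 12.9% with DESeq2.

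The 6 called members that were lower in RES were all higher in Period 2. Of the 5 called that were higher in RES, 4 were lower and 1 was higher in Period 2. The median change was 0.10 over the 34 tested members lower in RES, -0.11 over the 31 higher in RES and 0.01 over all genes tested. Individual members ranged from -0.94 to 1.13. For the members higher in RES the direction rested on the scaling. With total-count scaling 10 members were called, all higher in Period 2, of which 1 was higher and 9 were lower in RES. The split of all DEGs turned from 742 higher and 741 lower to 1734 and 311. The median was then 0.12 over all genes, 0.00 over the members higher in RES and 0.21 over those lower in RES. With TMM and with total-count scaling, the median of the members higher in RES lay below that of all genes. That of the members lower in RES lay above it. Of the 31 tested members higher in RES, 21 had a lower and 10 a higher fitted level in Period 2, and of the 34 lower in RES, 23 had a higher and 11 a lower one. These counts and medians were not tested. The period effect of ENSBTAG00000021118 was -0.24 (SE 0.24, edgeR FDR 0.476) and that of ENSBTAG00000006035 was 0.08 (SE 0.24, edgeR FDR 0.832), neither past the threshold.

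The animals' deviations from their group means showed which members moved together irrespective of diet and period. Over the 40 animals, which share library depth and composition effects, Pearson's r between members had a median of 0.094 in pairs with the same direction and -0.044 in pairs with opposite directions. An r of at least 0.6 occurred in 43 of 3160 pairs (1.36%), against 0.448% of all pairs of genes. All 43 joined members of the same direction. Genes that vary together in the same animals tend to pass the rule together and with the same sign. These counts therefore follow in part from the choice, and members also varied more between animals than all genes. An r of -0.6 or below occurred in 4 pairs. The 43 links formed 8 groups and left 48 members unlinked.

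The largest linked group held 15 members, all higher in RES, with mean abundances of 1.40 to 12.2 CPM and median differences of 0.47 in Period 1 and 0.39 in Period 2. The mean log2(normalised value + 1) over these 15 ran from 2.16 through a median of 2.496 to 3.11 in RES and from 1.57 through 2.03 to 2.63 in ADLIB animals in Period 1. In Period 2 it ran from 1.99 through 2.40 to 2.90 in RES and from 1.57 through 2.11 to 2.35 in ADLIB animals. The RES medians were the higher ones in both periods, and the groups overlapped. Since these 15 members varied together from animal to animal, they are not 15 independent measurements. ENSBTAG00000047121 belonged to a group of 4 linked members, and another group held 3, all of them higher in RES. The highest r was 0.866.

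The library names carry a number from 1 to 4 that the labels do not explain, and the diets were unevenly spread over it. In Period 1 the members held their direction within number 1 in 69 of 80 (3 RES and 3 ADLIB animals), within number 3 in 76 (2 and 3) and within number 4 in 77 (2 and 4). Number 2 held 3 RES and 0 ADLIB animals in Period 1 and gave no value. In Period 2 the members held their direction in 66 (3 RES and 1 ADLIB animals), 74 (2 and 5), 74 (2 and 3) and 56 (3 and 1) for numbers 1 to 4. The same animals chose the members, so most were bound to hold their direction within a number. Among all genes, 51.6% to 81.2% had the sign of their own whole-period difference within a number. With differences taken within these numbers the rule gave 157 genes, 106 higher and 51 lower in RES, and 64 of the 80 members were among them. There the genes of opposite sign were fewer, at 124. The share of reads on genes also differed between the diets in Period 1. With this share as a covariate the rule gave 123 genes, 76 higher and 47 lower, of which 44 were members, and 79 of the 80 members kept both directions. The part of either in the members' differences was otherwise not tested.

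The number of members depended on single animals, as the plot of omissions shows. Leaving out each of the 40 animals in turn gave 65 to 114 genes. The lowest number came without replicate 6 of ADLIB in Period 1 and the highest without replicate 6 of RES in Period 2. The latter was the only omission in which genes of the same sign (114) outnumbered those of opposite sign (107). At least 60 of the 80 members met the rule in each omission, with the most lost (20) without replicate 7 of RES in Period 2, and 0 members changed direction. The members that met the rule in all 40 omissions numbered 15, of which 5 were higher and 10 lower in RES, and ENSBTAG00000006035 was 1 of them. Their smaller difference had a median size of 0.478, against 0.401 in the other members.

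**Figure D5:**
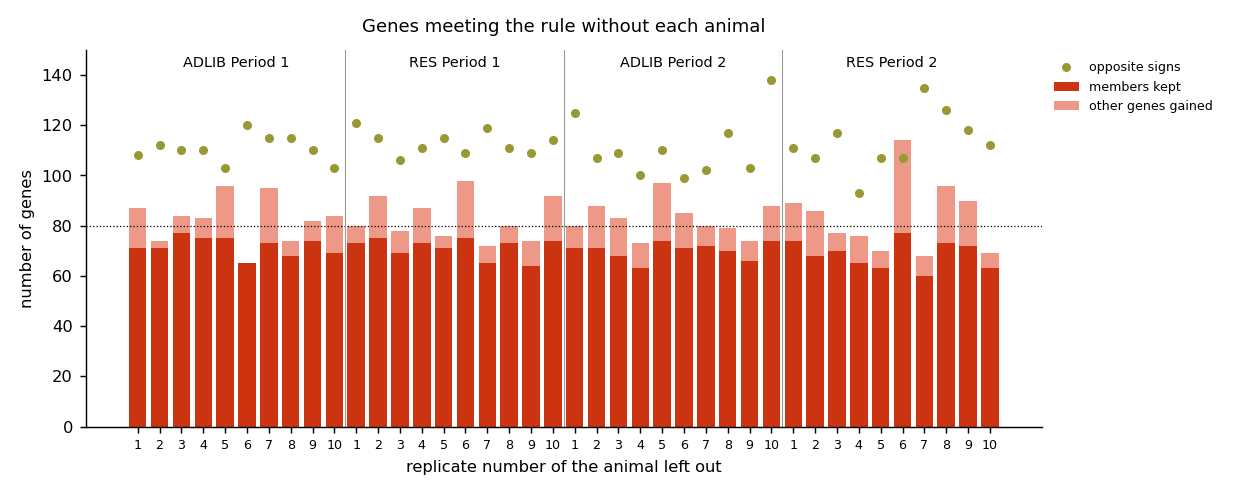
Number of genes meeting the rule (vertical) when the animal named on the horizontal axis was left out, with members kept in dark red, genes gained in pale red, and genes of opposite sign as olive points. The dotted line marks the 80 members. Numbers run from 65 to 114, and olive points lie above the bars in every case but 1.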

How the data were processed

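Hepatic RNA of 40 bulls was sequenced from 1 end of each fragment. Per the labels and the study's methods, the authors processed the reads with CASAVA 1.4 and TopHat against UMD3.1, and deposited HTSeq read counts per Ensembl gene without normalisation. They also deposited normalised values for 12150 genes in Period 1 and 12305 in Period 2. These values are a signal made by the authors: every count of an animal is multiplied by 1 constant (largest relative departure 6.74e-09), so that column sums run from 827800 to 1127592. The rule was applied to the 12063 genes in both tables, less 7 identifiers, with a pseudocount of 1. CPM used the sum of all gene counts. Counts gave 8656866 to 15520237 reads per animal, and members with a few reads per animal are imprecise.

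edgeR 4.0.16 in R 4.3.3 (TMM, robust quasi-likelihood, Benjamini-Hochberg FDR under 0.05, fold change of at least 1.25, at least 4 reads in every animal) was fitted over all genes, for each period with its 20 animals and for the period effect with all 40. DESeq2 1.42.0 was an alternative. The relabelling, the rule and the tables used Python 3.11.15, and the fits and the rule were tested on simulated data. The FDR limit of 0.05 is a choice made here, and a limit of 0.0005 (0.05%) is among the alternatives. Animals of a group differed by more than sampling noise in all 180 pairs (lowest chi-square per degree of freedom 17.8). The labels do not say that a replicate number marks shared animals, and the samples were treated as unpaired.

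The members and lists were chosen with earlier results of these data known. The members given by identifier are those with the largest smaller-of-the-pair difference, 2 in each direction, since 0 of 24616 identifiers could be paired with a name. The lists of liver cell type markers and of stress, matrix and metabolic genes could for that reason not be applied, and no sequences were used here.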

Additional observations from a re-analysis of the deposited data

Results flagged for a closer look

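Dixon's criterion was applied to 24 groups of 10 animals and set 2 animals apart from the rest of their group, where chance sets apart about 1 in 20 groups. Replicate 5 of ADLIB in Period 2 had 15520237 reads on genes, more than any other library. Replicate 6 of the same group had a log2(normalised value + 1) of 4.92 for ENSBTAG00000047121, the highest of its group and far above the others. Without that animal the Period 2 difference of this member kept its direction.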

How the results depend on the processing

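The number of genes meeting the rule was 80. It changed to 29 with a pseudocount of 5, 125 with group medians, 295 and 17 with a minimum size of 0.25 and 0.5, 157 within library-name numbers, 123 with each library's share of reads on genes added as covariate, and 65 to 114 without 1 animal. The genes of opposite sign were then 45, 163, 415, 27, 124 and 162. Total-count scaling gave 118 genes, 92 higher and 26 lower in RES against 43 and 37, and 111 of opposite sign. The shared members were 23 with a pseudocount of 5 and 44 with medians. The cause of these shifts was not tested. The relabelling comparison was repeated under settings chosen after seeing the data. The share reaching the same-sign number was 0.0868 to 0.279, and that for opposite signs was 0.0339 and 0.0392 with a minimum of 0.25 and 0.5, 0.0569 with a pseudocount of 5 and 0.108 with total-count scaling.

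DEGs in Period 1 (1243) were 94 at an FDR under 0.0005 and 394 with the covariate. In Period 2 (0) they were 1 within library-name numbers, a member lower in RES, and 52 with DESeq2. Period DEGs (1483) were 449 at an FDR under 0.0005. Members called for the period effect (11) were 1 at that FDR, 1.54% of those tested against 3.78% of all genes. They were 7 with no filter beyond 1 read (8.75% against 8.21%) and 6 within library-name numbers (9.23% against 10.6%). They were 8 to 13 elsewhere, with the members' share above or below that of all genes by setting. All 384 differences of the 4 named members kept their sign. Many of the 384 could not change. Leaving out an animal of 1 period leaves the other period's difference as it was, and the replicate block leaves both. The 4 members were also picked for large differences. Of the 384, 12 moved by over 1.5 times, among them the Period 1 difference of ENSBTAG00000047121 with the covariate (0.20 instead of 0.84).

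Same-numbered RES and ADLIB animals correlated by 0.126 on average in Period 1, against -0.0138 for animals of other numbers. In Period 2 the averages were -0.00306 and 0.000419. Of 10 pairs, 5 in Period 1 and 4 in Period 2 were over 0.1. The best correlation was with the own number in 4 cases in Period 1 and 1 in Period 2. Between the periods, same-numbered RES animals correlated by 0.103 on average, against -0.0115 for other numbers. In ADLIB animals the averages were 0.0489 and -0.00552. Some same-numbered animals also shared the number in their library names, and its part in these correlations was not tested. These values do not settle whether the replicate numbers pair the samples, within or between the periods. The samples were treated as unpaired. A replicate block gave 80 genes by the rule, which was fixed in advance because each number occurs once in every group. With this block there were 1458, 0 and 1502 DEGs for Period 1, Period 2 and the period effect. Depth limits members with few reads, and 15 of 80 could not enter the period test.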
